A study of Bos taurus with 17 samples.

Results

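Transcript levels of 10 genes were followed in bovine mesenchymal stem cells taken from umbilical cord and grown on plastic or on scaffolds. The set holds the transcriptional coactivator YAP, genes that act with it or are its targets, and genes of the CCN family. The genes were chosen by symbol: ANKRD1, CTGF, CYR61, WISP2, NOV, AMOTL2, AXL, TEAD1, LATS2 and YAP1 (the members). All 10 were present among the 12894 genes of the deposited table, and all 10 passed the filter of a mean of at least 5 normalized reads that left 10960 genes for testing. A normalized read is a read count divided by 1 scaling factor per library. RNA was measured by MARS-seq, which counts the 3′ ends of polyadenylated transcripts, in primary cultures.

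The 15 libraries used here fell into 5 groups, with replicates that the submitters call biological. Smart scaffold cultures at day 21 (n = 3) carried the growth factors attached to the scaffold, and their medium lacked them. Media scaffold cultures at day 21 (n = 4) received the complete myogenic differentiation medium, which holds reduced serum, ITS, BSA, dexamethasone, ascorbic acid 2 phosphate, vascular endothelial growth factor, insulin-like growth factor and fibroblast-like growth factor. Plastic cultures in that medium were sampled at day 3 (n = 3) and at day 21 (n = 2), and untreated plastic cultures at day 0 (n = 3), 1 day after seeding. Comparisons with day 0 therefore change the medium, the time in culture and, for scaffolds, the substrate together, and these cannot be told apart. Smart scaffolds against plastic at day 21 change both the substrate and where the growth factors were given, which cannot be told apart either. The day 0 scaffold group was not analysed here.

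YAP and its paralogue TAZ (gene WWTR1) have no DNA-binding domain of their own and reach their target genes through TEAD transcription factors. The Hippo kinases MST and LATS phosphorylate YAP and hold it in the cytoplasm, and stiff substrates, spreading and actin tension are known to favour its nuclear form. The CCN genes encode secreted matricellular proteins that bind integrins and growth factors. CYR61 (also called CCN1) and CTGF (CCN2) are widely used as readouts of YAP, NOV is CCN3, and WISP2 is CCN5, the family member that lacks the carboxy-terminal domain of the others. YAP is regulated mainly at the protein, which RNA levels do not show. The gene roles given here were worked out mostly in human and mouse cells.

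Libraries held 2197356 to 15483745 recovered reads, with the 2 plastic libraries of day 21 at 2197356 and 5264578, so 1 read was worth between 0.395 and 3.44 normalized reads. All 8 mesenchymal stromal markers were measured in every group, and their summed level lay at 145826 to 156845 normalized reads at day 0, 134364 to 145523 at day 3, and at day 21 at 477399 to 549665 on smart scaffolds, 525105 to 529409 on media scaffolds and 207431 to 214233 on plastic. The 3 blood and immune markers used here (CD14, LAPTM5 and CD68) summed to 16.0 to 22.5 at day 0, 17.9 to 50.5 at day 3, and at day 21 to 8.25 to 10.3 on smart scaffolds, 6.48 to 12.9 on media scaffolds and 89.7 to 113 on plastic. The 2 endothelial markers used here summed to at most 55.0 and the 2 epithelial markers to at most 6.93 in any library. Of 8 skeletal muscle markers 3 were in the table, and their sum lay at 944 to 1031 at day 0, 882 to 1722 at day 3, and at day 21 at 10688 to 11314 on smart scaffolds, 10865 to 12161 on media scaffolds and 11913 to 14398 on plastic. Of these 3 (ACTA1, TNNT3 and DES), DES alone was called higher on scaffolds than at day 0, and TNNT3 and DES on plastic at day 21. TNNT3 was called lower on both scaffolds than on plastic at day 21. Of the 8 mesenchymal markers, COL1A1, COL1A2 and COL3A1 were called higher on both scaffolds than on plastic at day 21 and ENG was called lower (576 on smart scaffolds and 614 on media scaffolds, against 3407 on plastic). The mesenchymal and the blood and immune sums did not overlap between scaffolds and plastic at day 21, and their part in the results was not tested. In bulk RNA, fewer cells of a type and less RNA per cell cannot be told apart.

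Differences were tested in 1 limma model of all 15 libraries on log2(normalized reads + 1). A gene was called when its Benjamini-Hochberg adjusted p was under 0.05 and its log2 fold change was at least 1 in size, and "rose" and "fell" are used only for called genes. Rescaling all libraries to the same total shifted the median log2 change of all genes by -0.257 for plastic at day 21 against day 0, by -0.319 for plastic at day 21 against day 3, by -0.246 for media scaffolds against day 0 and by -0.224 for smart scaffolds against day 0. With that rescaling, the called genes split into 1812 higher and 3276 lower for plastic at day 21 against day 0, in place of 2320 and 2636. The split was 1148 and 3057 in place of 1700 and 2124 against day 3. It was 1494 and 2271 in place of 1913 and 1635 for media scaffolds against day 0, and 1420 and 2155 in place of 1808 and 1546 for smart scaffolds against day 0. Shifts in the other comparisons were at most 0.0609.

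On plastic, ANKRD1, CYR61, WISP2, NOV and AMOTL2 fell within 3 days of differentiation medium, and no member rose. The 5 of 10 called lower stand beside 3.73% of all tested genes called lower and 6.27% called higher in that comparison, and the median log2 change of the members was -0.90 against -0.02 over all tested genes. By day 21 on plastic, WISP2, NOV and AMOTL2 had risen above day 3, and AXL had fallen below it; 15.5% of tested genes were called higher and 19.4% lower. Against day 0, plastic at day 21 had ANKRD1, CYR61 and AXL called lower and no member called higher, beside 24.1% and 21.2% of tested genes. The members' median log2 change was 0.41 against day 3, where that of all tested genes was -0.04, and -0.30 against day 0, where that of all tested genes was -0.06.

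On both scaffolds at day 21, ANKRD1, CTGF and NOV were called higher than on plastic of the same day and WISP2 was called lower. For smart scaffolds the 3 higher and 1 lower stand beside 21.4% and 16% of tested genes, and for media scaffolds beside 20.8% and 14.6%. The members' median log2 change was 0.64 on smart scaffolds, where that of all tested genes was 0.01, and 0.60 on media scaffolds, where that of all tested genes was 0.02. Both comparisons use the same 2 plastic libraries.

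**Figure D1:**
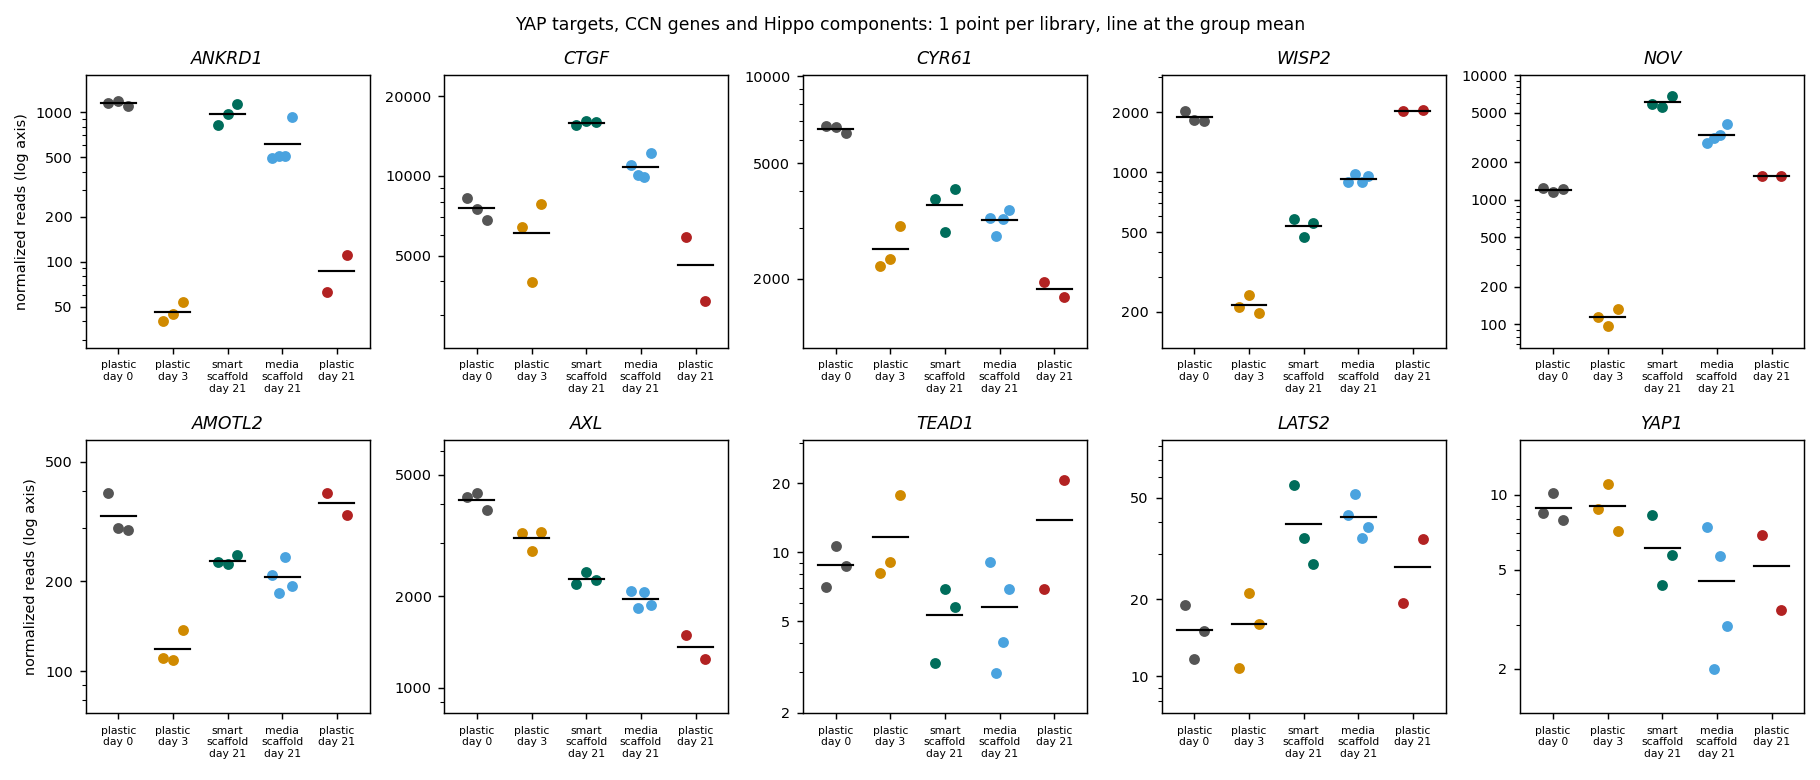
Normalized reads of the 10 members in each of 15 libraries (vertical log axes, 1 panel per gene), with day 0 and day 3 on plastic, then smart scaffold, media scaffold and plastic at day 21. Points are libraries and horizontal lines are group means. The 3 day 3 libraries are the lowest for WISP2, NOV and AMOTL2, and the 3 smart scaffold libraries are the highest for CTGF and NOV.

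ANKRD1 encodes an ankyrin repeat protein of muscle sarcomeres and nuclei and is a direct YAP-TEAD target. It had 1145, 1189 and 1099 normalized reads at day 0 and 39.7, 44.3 and 53.6 at day 3. At day 21 it had 819, 977 and 1126 on smart scaffolds, 493, 507, 512 and 926 on media scaffolds, and 62.1 and 110 on plastic. Every scaffold library lay above both plastic libraries of day 21, and the smart scaffold libraries reached into the range of day 0. ANKRD1 fell by 4.62 on the log2 scale at day 3 against day 0 (SE 0.22, adjusted p = 8.85e-11) and was still lower on plastic at day 21 than at day 0 (log2 fold change -3.77, SE 0.25, adjusted p = 6.46e-10). On smart scaffolds it rose 11.6-fold over plastic at day 21 (log2 fold change 3.53, SE 0.25, adjusted p = 3.86e-09), and on media scaffolds 7.03-fold (2.81, SE 0.24, adjusted p = 3.02e-08). The smart scaffold mean was 974 ± 154 (SD, n = 3), and its difference from the day 0 mean of 1144 ± 45.1 (SD, n = 3) was not called (log2 fold change -0.24, 95% interval -0.72 to 0.23, adjusted p = 0.365).

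Against day 0, ANKRD1 on media scaffolds was just short of the fold threshold (log2 fold change -0.96, adjusted p = 6.91e-04), and without media scaffold replicate 4, its highest library, it was called at -1.18. Between plastic at day 21 and day 3 the log2 change of 0.85 (SE 0.25, adjusted p = 0.00747) was not called. This change was 1.25 without plastic day 21 replicate 1 and 0.44 without replicate 2. ANKRD1 is also a gene of heart muscle. Of 7 cardiac markers, 2 were in the table, and they moved apart on scaffolds. ACTC1, cardiac actin, had 103 normalized reads on smart scaffolds, 118 on media scaffolds and 19.9 on plastic at day 21, and was called higher on both (log2 fold changes 2.67 and 2.89, adjusted p = 0.00111 and 3.52e-04); its call on smart scaffolds was lost without plastic day 21 replicate 1. MYH6, a cardiac myosin heavy chain, was near 0 on smart scaffolds (0.550) and media scaffolds (0.454), against 10.3 on plastic at day 21. The part of these genes in the ANKRD1 result was not tested.

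CTGF encodes a matricellular protein that promotes matrix production. It had 8273, 7537 and 6822 normalized reads at day 0 and 6431, 3996 and 7823 at day 3. On day 21 there were 15556, 16092 and 15995 on smart scaffolds, 10999, 10104, 9877 and 12252 on media scaffolds, and 5883 and 3374 on plastic. All 7 scaffold libraries exceeded all 8 plastic libraries, whereas among the plastic groups day 3 overlapped both day 0 and day 21. CTGF rose 3.56-fold on smart scaffolds over plastic at day 21 (log2 fold change 1.83, SE 0.23, adjusted p = 2.1e-06) and 2.42-fold on media scaffolds (1.27, SE 0.21, adjusted p = 6.15e-05). Without plastic day 21 replicate 2, the lower of the pair, the media scaffold change was 0.87 and not called. Against day 0, smart scaffolds were called higher (log2 fold change 1.08, SE 0.20, adjusted p = 1.79e-04), a call that ended at 0.85 when libraries were rescaled to the same total and at 0.78 with quantile normalization.

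On plastic, CTGF changed by -0.36 at day 3 against day 0 (adjusted p = 0.191) and by -0.76 at day 21 against day 0 (SE 0.23, adjusted p = 0.00662), neither past both thresholds. The day 21 change was -1.16 without plastic day 21 replicate 1 and -0.35 without replicate 2. It was called at -1.02 after rescaling to the same total. CTGF was the 1 member of the CCN family with no call among the plastic groups, and over all 15 libraries its levels correlated with those of CYR61 at r = 0.367.

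CYR61, an immediate-early gene whose secreted protein supports adhesion and migration, had 6758, 6656 and 6351 normalized reads at day 0 and 2216, 2336 and 3047 at day 3. The day 21 values were 3777, 2904 and 4068 on smart scaffolds, 3236, 2804, 3219 and 3452 on media scaffolds, and 1951 and 1732 on plastic. Day 0 stood above every other library, and both plastic libraries of day 21 stood below every other library. CYR61 fell by 1.39 on the log2 scale at day 3 against day 0 (SE 0.13, adjusted p = 4.64e-07) and by 1.84 on plastic at day 21 against day 0 (SE 0.15, adjusted p = 6.84e-09). The scaffold differences from plastic at day 21 were under the fold threshold, with log2 fold changes of 0.95 on smart scaffolds (SE 0.15, adjusted p = 2.75e-05) and 0.79 on media scaffolds (SE 0.14, adjusted p = 1.11e-04). The smart scaffold change was called by edgeR with all libraries (1.00, adjusted p = 1.39e-05), and in limma at 1.09 without smart scaffold replicate 2. Without single libraries it ran from 0.85 to 1.09, and it was 1.03 without plastic day 21 replicate 1.

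AMOTL2, a YAP target whose angiomotin-like protein binds YAP and restrains it, had 395, 301 and 296 normalized reads at day 0 and 110, 109 and 137 at day 3. The libraries of day 21 held 231, 227 and 244 on smart scaffolds, 210, 182, 241 and 192 on media scaffolds, and 393 and 333 on plastic. The scaffold libraries lay between the day 3 libraries and the plastic libraries of days 0 and 21, without touching either. AMOTL2 fell by 1.46 on the log2 scale at day 3 (SE 0.14, adjusted p = 5.87e-07) and rose by 1.61 on plastic at day 21 against day 3 (SE 0.16, adjusted p = 1.67e-07). Against plastic at day 21 its log2 fold changes were -0.63 on smart scaffolds (adjusted p = 0.00238) and -0.82 on media scaffolds (adjusted p = 1.58e-04), both under the fold threshold. Against plastic at day 21, ANKRD1 and CTGF were thus called higher on both scaffolds, while AMOTL2 was lower without being called.

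AXL, a receptor tyrosine kinase for GAS6 and a YAP target, had 4220, 4346 and 3842 normalized reads at day 0 and 3233, 2821 and 3251 at day 3. By day 21 the values were 2191, 2404 and 2261 on smart scaffolds, 2078, 1835, 2059 and 1877 on media scaffolds, and 1488 and 1240 on plastic. The 5 groups did not overlap, in the order day 0, day 3, smart scaffold, media scaffold and plastic at day 21. AXL fell by 1.60 on the log2 scale on plastic at day 21 against day 0 (SE 0.11, adjusted p = 7.94e-10) and by 1.19 against day 3 (SE 0.11, adjusted p = 6.18e-08). Its scaffold levels exceeded plastic at day 21 by 0.75 on smart scaffolds (adjusted p = 1.3e-05) and 0.53 on media scaffolds (adjusted p = 2.61e-04) on the log2 scale, under the fold threshold.

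NOV, a CCN protein known in rodent kidney cells for opposing the fibrotic actions of CTGF, had 1249, 1147 and 1211 normalized reads at day 0 and 114, 97.6 and 132 at day 3. The day 21 levels were 5902, 5541 and 6743 on smart scaffolds, 2862, 3122, 3306 and 4023 on media scaffolds, and 1542 and 1550 on plastic. None of the 5 groups overlapped, and the highest group mean was 52.9 times the lowest, the widest span among the 10 members. NOV fell by 3.39 on the log2 scale at day 3 (SE 0.13, adjusted p = 2.35e-12) and rose 13.5-fold on plastic at day 21 against day 3 (log2 fold change 3.75, SE 0.14, adjusted p = 7.53e-13). Over plastic at day 21 it rose 3.91-fold on smart scaffolds (log2 fold change 1.97, SE 0.14, adjusted p = 4.08e-09) and 2.14-fold on media scaffolds (1.09, SE 0.13, adjusted p = 1.97e-06). Over day 0 it was called higher on smart scaffolds (2.33, adjusted p = 4.67e-11) and media scaffolds (1.46, adjusted p = 6.99e-09). The media scaffold call against plastic rests on a change close to the threshold and ended without media scaffold replicate 4.

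WISP2 had 2013, 1825 and 1798 normalized reads at day 0 and 210, 241 and 198 at day 3. Its day 21 values were 586, 473 and 554 on smart scaffolds, 889, 977, 890 and 956 on media scaffolds, and 2015 and 2055 on plastic. Its 5 groups did not overlap, and its order at day 21 was the reverse of that of NOV, with plastic highest and smart scaffolds lowest. WISP2 fell by 3.11 on the log2 scale at day 3 (SE 0.10, adjusted p = 5.95e-13) and rose by 3.23 on plastic at day 21 against day 3 (SE 0.11, adjusted p = 3.7e-13). Against plastic at day 21 it fell by 1.92 on smart scaffolds (SE 0.11, adjusted p = 4.45e-10) and by 1.13 on media scaffolds (SE 0.11, adjusted p = 1.21e-07). Plastic at day 21 and day 0 differed by 0.12 on the log2 scale (95% interval -0.12 to 0.36, adjusted p = 0.373), a sign that turned to -0.15 after rescaling to the same total.

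WISP1 (CCN4), a further CCN gene that is not a member, was called higher on scaffolds. It had 149, 164 and 182 normalized reads on smart scaffolds, 149, 110, 145 and 179 on media scaffolds, and 9.66 and 6.87 on plastic at day 21. Its plastic libraries of days 0 and 3 held at most 19.3. WISP1 rose by 4.17 on the log2 scale on smart scaffolds (SE 0.35, adjusted p = 2.72e-08) and by 3.98 on media scaffolds (SE 0.33, adjusted p = 2.64e-08) over plastic at day 21, and was called under every alternative run. The 5 CCN genes measured thus split on scaffolds into CTGF, NOV and WISP1 called higher than plastic at day 21, WISP2 called lower and CYR61 not called. WISP3 (CCN6) was not used here.

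**Figure D2:**
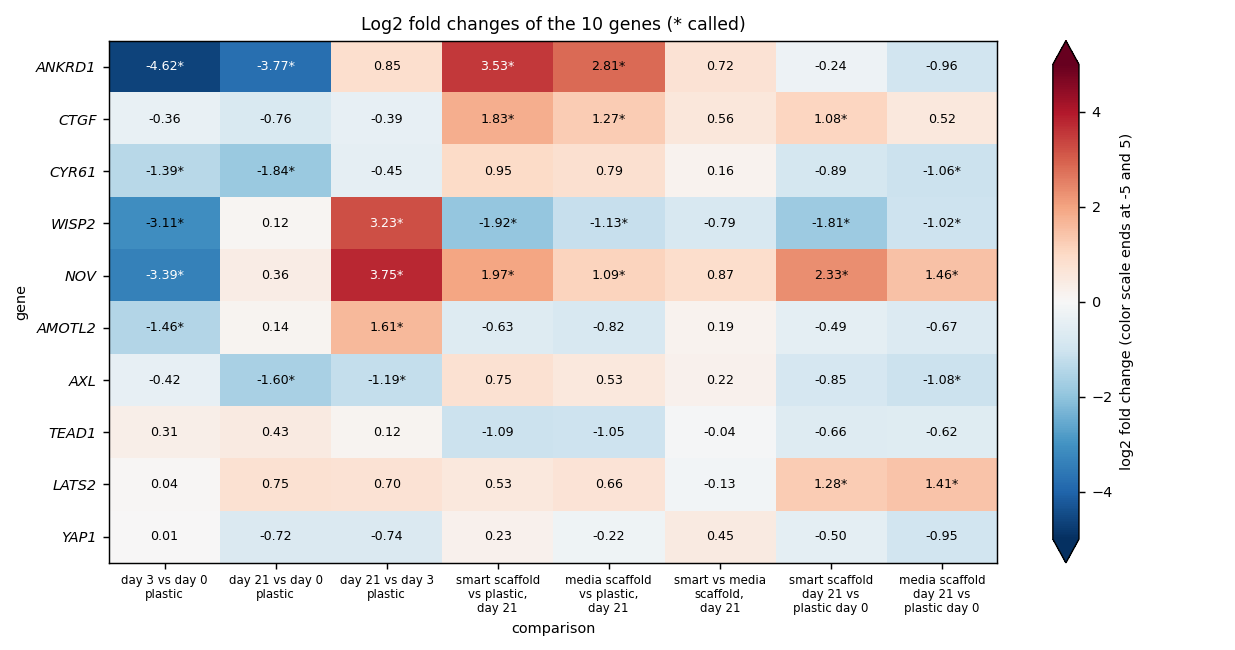
Log2 fold changes of the 10 members (rows) in 8 comparisons (columns), coloured from -5 to 5, with the value in each cell and a star where the gene was called. ANKRD1, CYR61, WISP2, NOV and AMOTL2 are starred at day 3 against day 0, and ANKRD1, CTGF, NOV and WISP2 on both scaffolds against plastic at day 21.

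The remaining members encode the coactivator, a DNA-binding partner of YAP and a kinase that phosphorylates it, and all had few reads. YAP1 was measured with 1 to 20 reads per library. Its normalized reads were 8.44, 10.1 and 7.89 at day 0 and 8.76, 11.1 and 7.14 at day 3. At day 21 they were 8.25, 4.34 and 5.75 on smart scaffolds, 7.39, 1.99, 5.67 and 2.96 on media scaffolds, and 6.90 and 3.44 on plastic. All neighbouring groups overlapped and no comparison was called. The 95% interval of the log2 difference was -0.76 to 1.22 for smart scaffolds and -1.16 to 0.71 for media scaffolds against plastic at day 21, so changes as large as the call threshold of 1 were not resolved at this depth. For media scaffolds against day 0 the log2 change of -0.95 (adjusted p = 0.0435) was under the fold threshold and was called at -1.16 after rescaling to the same total.

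TEAD1, a member of the TEAD transcription factors through which YAP reaches DNA, was measured with 2 to 22 reads per library. It had 7.03, 10.7 and 8.68 normalized reads at day 0 and 8.08, 9.06 and 17.9 at day 3. At day 21 there were 3.30, 6.94 and 5.75 on smart scaffolds, 9.03, 2.98, 4.05 and 6.91 on media scaffolds, and 6.90 and 20.6 on plastic. Neighbouring groups overlapped throughout and no comparison was called. Its log2 fold changes against plastic at day 21 were -1.09 on smart scaffolds (SE 0.51, adjusted p = 0.0709) and -1.05 on media scaffolds (SE 0.48, adjusted p = 0.0683). They were -1.82 and -1.77 without plastic day 21 replicate 1, and -0.37 and -0.32 without replicate 2.

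LATS2, a Hippo kinase that phosphorylates YAP and is itself a YAP target, was measured with 9 to 52 reads per library. It had 19.0, 11.7 and 15.0 normalized reads at day 0 and 10.8, 21.1 and 16.1 at day 3. Its levels at day 21 were 56.1, 34.7 and 27.6 on smart scaffolds, 42.7, 51.7, 34.8 and 38.5 on media scaffolds, and 19.3 and 34.4 on plastic. Every scaffold library lay above every day 0 library, and LATS2 rose on smart scaffolds (log2 fold change 1.28, SE 0.31, adjusted p = 0.00192) and media scaffolds (1.41, SE 0.29, adjusted p = 4.29e-04) against day 0. The differences from plastic at day 21 were 0.53 on smart scaffolds (adjusted p = 0.194) and 0.66 on media scaffolds (adjusted p = 0.0908). The media scaffold change was 1.06 without plastic day 21 replicate 2 and 0.26 without replicate 1.

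Against day 0, smart scaffolds had CTGF, NOV and LATS2 called higher and WISP2 called lower, beside 16.5% and 14.1% of tested genes. Media scaffolds had NOV and LATS2 called higher and CYR61 (log2 fold change -1.06, adjusted p = 8.24e-07), WISP2 (-1.02, adjusted p = 5.09e-08) and AXL (-1.08, adjusted p = 1.24e-08) called lower, beside 17.5% and 14.9% of tested genes. CYR61 and AXL on smart scaffolds were under the fold threshold against day 0, at -0.89 (adjusted p = 1.53e-05) and -0.85 (adjusted p = 6.8e-07), and rescaling to the same total called both. The media scaffold calls of CYR61 and WISP2 ended without single libraries, CYR61 without media scaffold replicate 2 and WISP2 without day 0 replicate 1 or media scaffold replicate 1 or 3. The members' median log2 change was -0.49 on smart scaffolds and -0.81 on media scaffolds against day 0.

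Smart and media scaffolds, which differed in whether growth factors sat on the scaffold or in the medium, differed in no member past both thresholds. In limma the count of members called between smart and media scaffolds was 0, beside 0.903% of tested genes (0.073% higher and 0.83% lower), and edgeR and DESeq2 on recovered reads also called 0. At an unadjusted p under 0.05, 5 members differed, beside 13.1% of tested genes. An adjusted p under 0.05 at any fold was reached by NOV and WISP2, beside 2.35% of tested genes. The groups did not overlap for 4 of 10 members, CTGF, NOV, WISP2 and AXL, beside 20.4% of tested genes.

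NOV averaged 6062 ± 616 normalized reads on smart scaffolds (SD, n = 3) and 3328 ± 497 on media scaffolds (SD, n = 4), a log2 difference of 0.87 (95% interval 0.62 to 1.12, adjusted p = 4.89e-04). WISP2 averaged 538 ± 58.3 on smart scaffolds (SD, n = 3) and 928 ± 45.2 on media scaffolds (SD, n = 4), a log2 difference of -0.79 (95% interval -0.99 to -0.59, adjusted p = 1.47e-04). Neither interval holds 0, and both adjusted p values stayed under 0.05 in each fit that left out a library. CTGF averaged 15881 ± 286 on smart scaffolds (SD, n = 3) and 10808 ± 1078 on media scaffolds (SD, n = 4), a log2 difference of 0.56 (95% interval 0.16 to 0.96, adjusted p = 0.159). In limma its adjusted p was 9.72e-05 in a fit of these groups alone and 0.00209 with array weights. Every other alternative left it above 0.05, and all were under the fold threshold.

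ANKRD1 averaged 974 ± 154 on smart scaffolds (SD, n = 3) and 610 ± 211 on media scaffolds (SD, n = 4), with overlapping libraries and a log2 difference of 0.72 (95% interval 0.27 to 1.16, adjusted p = 0.095). Without media scaffold replicate 4 the difference was 0.94 with an adjusted p of 0.00921, still under the fold threshold, and with all libraries edgeR gave an adjusted p of 0.0449 and DESeq2 of 0.0255. In limma the adjusted p was 0.195 in a fit of these groups alone. Leaving out any other single scaffold library gave 0.12 to 0.337 in limma, so the adjusted p depended on the fit. AXL differed by 0.22 (95% interval 0.03 to 0.41, adjusted p = 0.281), CYR61 by 0.16 (-0.10 to 0.42, adjusted p = 0.65) and AMOTL2 by 0.19 (-0.09 to 0.47, adjusted p = 0.62). For YAP1, TEAD1 and LATS2 the intervals ran from -0.38 to 1.28, from -0.94 to 0.86 and from -0.75 to 0.49, each holding 0.

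**Figure D3:**
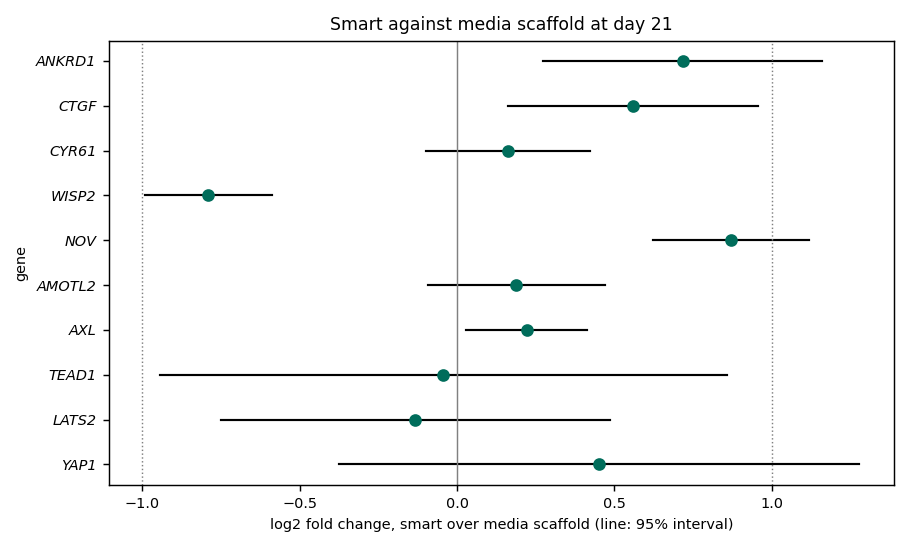
Log2 fold changes of the 10 members on smart over media scaffolds at day 21 (horizontal axis, 3 and 4 libraries) with 95% intervals, and dotted lines at -1 and 1. NOV at 0.87 and WISP2 at -0.79 lie farthest from 0, and no estimate passes a dotted line.

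Among 16 tested YAP and TAZ target genes outside the 10, 4 fell and none rose at day 3 against day 0. Of all tested genes, 3.73% were called lower and 6.27% higher. TGFB2, a TGF-beta ligand, had 15.3 normalized reads at day 3 against 67.6 at day 0 (log2 fold change -2.11, adjusted p = 6.72e-07), and GADD45A, a stress-response gene, had 527 at day 3 against 1369 at day 0 (-1.39, adjusted p = 2.72e-08). AJUBA, which encodes a LIM protein that binds LATS kinases, had 8.79 at day 3 against 20.3 at day 0 (-1.20, adjusted p = 0.039), and CRIM1, named after its values were seen, had 513 at day 3 against 1119 at day 0 (-1.16, adjusted p = 1.71e-05). The list's median log2 change was -0.27, against -0.02 over all tested genes. On plastic at day 21 against day 3, 6 of the 16 rose and none fell, beside 15.5% and 19.4% of all tested genes. Compared with day 0, 4 rose and 2 fell, beside 21.2% and 24.1%.

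At day 21 against plastic, this wider list had 3 higher and 4 lower on smart scaffolds and 4 higher and 5 lower on media scaffolds. All tested genes had 21.4% higher and 16% lower on smart scaffolds, and 20.8% and 14.6% on media scaffolds. The list's medians were -0.05 and -0.42, against 0.01 and 0.02 over all tested genes. Against day 0, 5 rose and 2 fell on smart scaffolds, beside 16.5% and 14.1% of all tested genes. On media scaffolds 5 rose and 2 fell, beside 17.5% and 14.9%. TGFB2 rose, with 444, 513 and 326 normalized reads on smart scaffolds, 437, 477, 403 and 545 on media scaffolds, and 70.4 and 82.5 on plastic. GADD45A rose as well, with group means of 2103 on smart scaffolds, 1582 on media scaffolds and 537 on plastic; it was named after its scaffold values were seen. IGFBP3, an insulin-like growth factor binding protein, fell to 2667 on smart scaffolds and 5492 on media scaffolds, against 62427 on plastic at day 21 (log2 fold changes -4.59 and -3.52, adjusted p = 5.36e-12 and 9.83e-11). AMOTL1, the paralogue of AMOTL2, fell to 13.0 on smart scaffolds and 9.99 on media scaffolds, against 109 on plastic (-2.96 and -3.36, adjusted p = 2.14e-07 and 2.88e-08).

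Between the scaffolds 1 of the 16 was called, beside 0.903% of all tested genes. IGFBP3 had 3371, 1910 and 2720 normalized reads on smart scaffolds and 5950, 4690, 6743 and 4583 on media scaffolds (log2 fold change -1.06, SE 0.16, adjusted p = 0.00133). This call held under 15 of 18 alternatives, being lost without media scaffold replicate 3, without smart scaffold replicate 2 and in a fit of these groups alone.

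**Figure D4:**
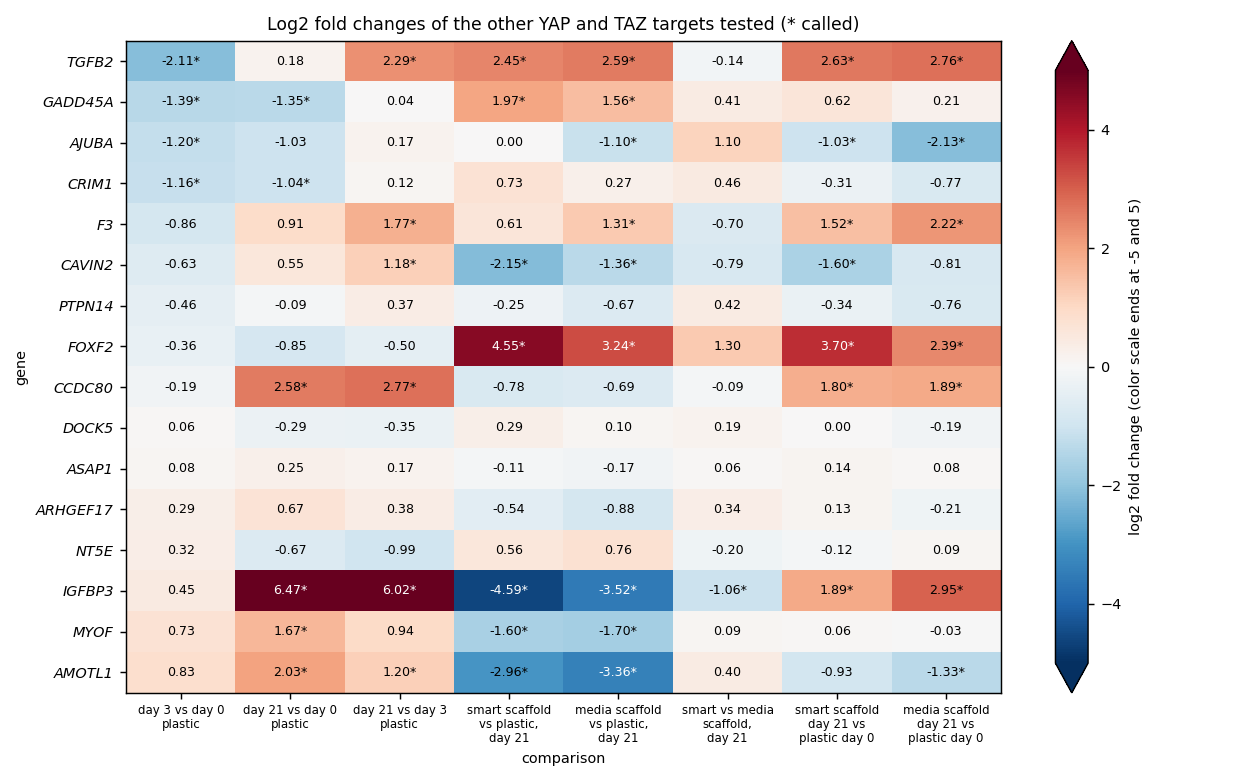
Log2 fold changes of the tested YAP and TAZ target genes outside the 10 members (rows) in 8 comparisons (columns), coloured from -5 to 5, with a star where the gene was called. IGFBP3 is called higher on plastic at day 21 against day 0 and day 3 and lower on both scaffolds against plastic at day 21, while TGFB2 is called higher on both scaffolds.

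Of 20 tested Hippo kinases and upstream regulators, 5 were higher and 5 lower on smart scaffolds, and 5 higher and 4 lower on media scaffolds, against plastic at day 21, where 21.4% of all tested genes were higher and 16% lower on smart scaffolds and 20.8% and 14.6% on media scaffolds. AMOT, the founding angiomotin, had 117 normalized reads on smart scaffolds and 138 on media scaffolds, against 6.53 on plastic (log2 fold changes 4.12 and 4.40, adjusted p = 8.25e-07 and 2.22e-07). SAV1, the scaffold protein of the MST kinases, had 127 on smart scaffolds and 158 on media scaffolds, against 27.5 on plastic (2.21 and 2.51), and STK4, which encodes MST1, had 16.1 on smart scaffolds and 12.2 on media scaffolds, against 64.4 on plastic (-1.96 and -2.36). Of the 3 angiomotin genes, AMOT was called higher on both scaffolds, AMOTL1 lower, and AMOTL2 was not called. At day 3 against day 0, 1 of the 20 rose and 2 fell, beside 6.27% and 3.73% of all tested genes. None was called between the scaffolds, beside 0.903% of all tested genes.

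On plastic at day 21, 6 of the 20 rose and 4 fell against day 0, beside 21.2% and 24.1% of all tested genes. In the comparison with day 3, 2 rose and 4 fell, beside 15.5% and 19.4%. WWC1, which encodes the upstream regulator KIBRA, fell to 12.0 normalized reads, against 142 at day 0 (log2 fold change -3.57, adjusted p = 2.29e-06). Against day 0, 3 of the 20 rose and 3 fell on smart scaffolds, beside 16.5% and 14.1% of all tested genes. On media scaffolds 3 rose and 4 fell, beside 17.5% and 14.9%.

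WWTR1, which encodes TAZ, averaged 112 normalized reads at day 0, 216 at day 3, and at day 21 68.2 on smart scaffolds, 61.1 on media scaffolds and 79.1 on plastic. It fell on plastic at day 21 against day 3 (log2 fold change -1.50, SE 0.21, adjusted p = 9.2e-06), and its change of 0.93 at day 3 against day 0 (adjusted p = 0.00105) was under the fold threshold. Of 6 tested YAP partners and TEAD cofactors including WWTR1, 2 fell on smart scaffolds and 2 on media scaffolds against day 0, and 1 rose and 3 fell on plastic at day 21 against day 0. Called lower were 14.1% of all tested genes on smart scaffolds, 14.9% on media scaffolds and 24.1% on plastic, where 21.2% were called higher. TEAD4 fell to 8.74 on smart scaffolds, 7.15 on media scaffolds and 14.1 on plastic at day 21, against 66.4 at day 0 (-2.81, -3.15 and -2.18). TEAD2 fell to 52.6 on smart scaffolds and 48.0 on media scaffolds, against 218 at day 0 (-2.03 and -2.16). In the list's other comparisons, 1 gene fell at day 3 against day 0, 2 rose and 2 fell on plastic at day 21 against day 3, 1 rose on smart and 1 fell on media scaffolds against plastic at day 21, and none was called between scaffolds. All tested genes had 6.27% higher and 3.73% lower at day 3, and 15.5% and 19.4% on plastic at day 21 against day 3. Scaffolds against plastic had 21.4% and 16% on smart and 20.8% and 14.6% on media, and 0.903% were called between scaffolds.

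SRF and its coactivator MRTF control genes of the actin cytoskeleton and form a further pathway sensitive to tension. Of 15 such genes tested, 10 rose and none fell on plastic at day 21 against day 3, with a list median of 1.46 on the log2 scale, and 7 rose and none fell against day 0. Beside these stand 15.5% of all tested genes higher and 19.4% lower against day 3, and 21.2% and 24.1% against day 0. MYL9, a myosin light chain of contractile cells, had 13449 normalized reads on plastic at day 21, against 1848 at day 3 (log2 fold change 2.86, adjusted p = 3.34e-12). CALD1, the actin-binding protein caldesmon, had 9377 on smart scaffolds and 9219 on media scaffolds, against 30463 on plastic at day 21 (-1.64 and -1.66, adjusted p = 1.61e-06 and 7.77e-07). FHL2 had 1922 on smart scaffolds and 1743 on media scaffolds, against 5039 on plastic (-1.40 and -1.53). In all, none of the 15 rose and 2 fell on smart scaffolds, and none rose and 4 fell on media scaffolds, against plastic at day 21, the comparisons in which ANKRD1, CTGF and NOV were called higher. The shares of all tested genes were 21.4% higher and 16% lower on smart scaffolds, and 20.8% and 14.6% on media scaffolds. At day 3 against day 0, 1 fell, beside 3.73% of all tested genes, and between scaffolds none was called, beside 0.903%. Against day 0, 4 rose and 1 fell on smart scaffolds, beside 16.5% and 14.1%, and 2 rose and 1 fell on media scaffolds, beside 17.5% and 14.9%.

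CTGF is also a TGF-beta target, and TGF-beta response genes were counted beside it. Of 10 tested, none rose and 3 fell at day 3 against day 0, beside 6.27% and 3.73% of all tested genes. On plastic at day 21, 4 rose and 3 fell against day 0, beside 21.2% and 24.1%. Compared with day 3, 4 were higher and 1 lower, beside 15.5% and 19.4%. On scaffolds 2 rose and 2 fell on smart and 1 rose and 2 fell on media, against plastic at day 21. Of all tested genes, 21.4% were higher and 16% lower on smart scaffolds, and 20.8% and 14.6% on media scaffolds. TGFBI, a TGF-beta induced matrix protein, fell to 154 normalized reads on smart scaffolds and 76.0 on media scaffolds, against 653 on plastic (log2 fold changes -2.08 and -3.09), and COL1A1, collagen I, rose (1.45 and 1.41). TGFBI was the 1 gene of the list called between scaffolds (1.02, adjusted p = 0.00319), beside 0.903% of all tested genes. Over the alternatives, the list's count of genes called higher between scaffolds ran from 0 to 1, so this call did not always hold. Against day 0, 3 rose and none fell on smart scaffolds, beside 16.5% and 14.1% of all tested genes. On media scaffolds 3 rose and 2 fell, beside 17.5% and 14.9%.

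Levels of the members were compared across the 15 libraries by Pearson correlation of log2(normalized reads + 1), as a description, since libraries of a group share their conditions. Of 45 pairs, WISP2 and AMOTL2 had the highest r, 0.902, followed by ANKRD1 and NOV at 0.775, ANKRD1 and CYR61 at 0.754, and CYR61 and AXL at 0.731. The lowest was AXL with LATS2, at -0.674. CTGF and WISP2 stood at -0.134. WISP2 and AMOTL2 were low at day 3 and intermediate on scaffolds, whereas CTGF was high on scaffolds alone.

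Among all tested genes with a symbol, the levels most like those of ANKRD1 were PRDM6 (r = 0.989), a smooth muscle repressor, FGFR2 (0.984), a fibroblast growth factor receptor, and PTN (0.958), the growth factor pleiotrophin. CTGF was most like CTHRC1 (0.966), a secreted collagen triple helix protein, ARFIP1 (0.964) and ATP6V1G1 (0.960). For NOV they were DDIT3 (0.983), the stress transcription factor CHOP, SELENOS (0.976) and TMED9 (0.973), and for WISP2 POMGNT2 (0.921), EMX2 (0.913) and KCTD15 (0.913). KCTD15 was also the gene most like AMOTL2 (0.902). CYR61 was most like NDUFAF4 (0.954) and AXL like SPCS3 (0.983). The best matches of LATS2, TEAD1 and YAP1 were DSC2 (0.928), DMAC1 (0.858) and RNF6 (0.816), in members with few reads.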

How the data were processed

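The deposited table holds 1 normalized signal per gene and library, which the authors made by dividing read counts by 1 factor per library. Dividing by the value of 1 read gave whole reads for 100% of values within a tolerance of 0.1. Per the submitters' processing notes, the tools were cutadapt, STAR, HTSeq and DESeq and the genome was ARS-UCD1.2. The sources used here do not say whether strand or molecular identifiers were used, so overlapping and antisense genes cannot be separated. In the table, 2 value columns carry names found in no label and were left out. 1498 genes have no symbol.

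Values were tested with limma 3.58.1 (trend and robust, R 4.3.3, two-sided) on log2(value + 1), which understates changes of genes with few reads, in 1 fit of 15 libraries in 5 groups with no replicate block. Genes with a mean of at least 5 were kept, leaving 10960, and Benjamini-Hochberg adjustment was made within each of 8 comparisons. The fit was tested on simulated data. Replicates of a group differed beyond sampling noise of reads (chi-square over its degrees of freedom 2.39 to 17.3), so none was merged. Replicate numbers share only a number. The p-values weigh a difference against the spread between these libraries. Values after ± are SD over libraries, and SE is the standard error of the log2 fold change in the limma model.

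Alternatives were pseudocounts of 0.5 and 4, a filter at a mean of 20 or none, quantile normalization, rescaling to the same total, array weights, a replicate block, a fit with only the groups compared, edgeR 4.0.16 and DESeq2 1.42.0 on recovered reads, and leaving out each library. The members and gene lists were chosen with earlier results of these data known. All 10 members are reported, and from each list the 3 called genes with the largest change in a comparison could be named, besides WWTR1, WISP1 and markers. For each member the 3 genes with the highest correlation could be named. Genes and markers outside the table were not used here, and 1 gene left out of a list is not reported here. No sequence or coordinate is given.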

Additional observations from a re-analysis of the deposited data

Results flagged for a closer look

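ANKRD1 on media scaffolds at day 21 had 1 library far from the others. Media scaffold replicate 4 had 926 normalized reads, and the other 3 had 493, 507 and 512. Its gap to the nearest library was 0.957 of the group's whole range, above Dixon's 95% critical value for 4 samples. The 10 members were examined in this group, the only one with at least 4 libraries, and 1 was marked in this way. Chance marks about 1 in 20 such tests, and the 10 tests share the same 4 libraries. The same library was the highest of its group for CTGF (12252), NOV (4023) and CYR61 (3452), and for ACTC1 (167, with 74.6 to 143 in the others). It was not the highest of its group for WISP2, AMOTL2, AXL, TEAD1, LATS2 or YAP1. The part of ACTC1 in the ANKRD1 value was not tested.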

How the results depend on the processing

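Of 1334 member values recomputed under the alternatives, 1266 kept their direction and side of the thresholds, 30 became called, 9 lost their call and 29 changed sign. All 29 were uncalled in the main comparison, and the cause was not tested. The count of members called on plastic at day 21 against day 0 was 3 and ranged from 3 to 5 without single libraries. Over all alternatives, that against day 3 ran from 4 to 6 (main 4). Against plastic at day 21 it was 4 to 6 on smart and 3 to 5 on media scaffolds (main 4 and 4). Compared with day 0 it was 4 to 5 on smart and 4 to 7 on media scaffolds (main 4 and 5). The count at day 3 stayed at 5, and that between scaffolds at 0. At day 3 against day 0, LATS2 was -0.10 with quantile normalization and -0.38 with array weights, YAP1 -0.10 and -0.016, and TEAD1 -0.10 with array weights. Rescaling to the same total gave WISP2 -0.15 and AMOTL2 -0.12 on plastic at day 21 against day 0, and TEAD1 -0.18 against day 3. Between smart and media scaffolds TEAD1 was 0.14 with quantile normalization, 0.023 with array weights and 0.064 with the replicate block. Without single libraries, day 3 against day 0 ran from -0.019 to 0.51 for TEAD1, -0.17 to 0.28 for LATS2 and -0.13 to 0.15 for YAP1. TEAD1 ran from -0.29 to 1.16 on plastic at day 21 against day 0 and from -0.60 to 0.85 against day 3, where CTGF ran from -0.80 to 0.0062. Against plastic at day 21, YAP1 ran from -0.19 to 0.64 on smart and -0.64 to 0.19 on media scaffolds. Between scaffolds TEAD1 ran from -0.27 to 0.21 and LATS2 from -0.41 to 0.088.

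Same-numbered replicates did not deviate together (correlations -0.0744 to 0.157), so the replicate block was an alternative. It moved NOV on media scaffolds over plastic at day 21 to 0.94, ending the call. The planned comparisons with the day 0 scaffold group were not run, since no column of the table matched those samples. Depth limits YAP1, TEAD1 and LATS2, and the 2 plastic libraries of day 21 limit every comparison with that group.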

Other observations

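Further genes of the lists differed between groups. DCHS1 and FAT4 encode a protocadherin ligand and receptor pair that acts upstream of Hippo in mammals. DCHS1 had 174 normalized reads on smart scaffolds and 181 on media scaffolds, against 28.1 at day 0 (log2 fold changes 2.55 and 2.66, adjusted p = 1.32e-07 and 2.62e-08 in limma). Plastic at day 21 had 101, and neither scaffold was called against it (0.72 and 0.83). FAT4 had 36.5 on smart scaffolds and 49.5 on media scaffolds, against 124 on plastic at day 21 (-1.73 and -1.23, adjusted p = 9.68e-04 and 0.00805). MAP4K4, a kinase that can activate LATS, had 132 on smart scaffolds and 132 on media scaffolds, against 516 on plastic at day 21 (-1.88 and -1.87, adjusted p = 1.53e-06 and 9.24e-07).

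TGFBR2, the type II TGF-beta receptor, had 322 normalized reads on smart scaffolds and 399 on media scaffolds, against 75.6 at day 0 (log2 fold changes 2.07 and 2.38, adjusted p = 2.75e-07 and 1.6e-08 in limma). Plastic at day 21 had 228, and neither scaffold was called against it (0.56 and 0.87). LTBP2, a protein of elastic microfibrils, had 349 on smart scaffolds and 440 on media scaffolds, against 3697 on plastic at day 21 (-3.36 and -3.02, adjusted p = 6.74e-10 and 1.35e-09).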
